A study of Mus musculus with 55 samples.

Results

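The genes described here are 57 DNA repair genes, picked by symbol from the 55421 genes of a count table of sorted mouse bone marrow cells. All 57 symbols were found in the table. They were grouped by repair pathway. Damage signalling held 5 genes, homologous recombination 16, end joining 5, mismatch repair 3, base excision and single-strand break repair 9, nucleotide excision repair 9 and the Fanconi pathway 10.

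DNA damage is sensed by kinases such as ATM and ATR, which pass the signal to the checkpoint kinases and to scaffold proteins at the break. Double-strand breaks are then repaired from the sister chromatid by homologous recombination or rejoined directly by end joining, whereas altered bases, bulky lesions and interstrand crosslinks are handled by base excision repair, nucleotide excision repair and the Fanconi pathway. Blood stem cells are known for their sensitivity to loss of these pathways, and inherited Fanconi gene defects cause bone marrow failure. TET2 is a dioxygenase that oxidizes 5-methylcytosine in DNA, and its gene is often mutated in clonal hematopoiesis and myeloid leukemia.

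The table holds 46 bulk RNA-seq libraries of 6 populations from wildtype (WT) and Tet2-/- mice. The populations were long-term and short-term hematopoietic stem cells (LT-HSC and ST-HSC) and the common myeloid, granulocyte-monocyte, megakaryocyte-erythroid and common lymphoid progenitors (CMP, GMP, MEP and CLP). There were 3 WT libraries of LT-HSC and of ST-HSC, and 4 libraries in each of the other 10 groups. By the methods of the study, Tet2 f/f mice with the Mx1-Cre transgene received poly(I:C) at 4 weeks of age and were kept for 16 weeks after induction. Mx1-Cre is switched on by interferon and so acts in many tissues, and whether the WT mice carried the transgene or received poly(I:C) is not given in the sources used here. Each library came from about 200 sorted cells by the labels, amplified with a SMART-seq kit, while the supplementary methods of the study give a higher number of cells per group and a modified SMART-seq2 protocol. The sort took LT-HSC as Lin-cKit+Sca1+CD48-CD150+ cells and ST-HSC as their CD150- counterpart, the myeloid progenitors as Lin-cKit+Sca1- cells split by CD34 and CD16/32, and CLP as Lin-cKit+Sca1int CD127+ cells. The labels do not say whether libraries of different populations with the same number came from 1 mouse.

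The libraries held 50458473 to 102148079 counts. Tet2 itself was not called in any population, with log2 differences between -0.37 and 1.23 and adjusted p-values of 0.37 or higher in edgeR's quasi-likelihood test. Counts per gene do not show whether the deleted exon was read, so they do not check the genotype. The CLP libraries stood apart. Their mean correlation with the other libraries of their group was 0.57 to 0.67, against 0.84 to 0.95 in the other groups. Ighm, the immunoglobulin mu heavy chain, took 10.3% to 15.9% of the counts in the WT CLP libraries, and Rag1, the recombinase gene of early lymphocytes, had no count there, although Il7r and Dntt were present. In Tet2-/- CLP replicate 2, Ighm took 0.0616% of the counts, against 4.11% to 9.84% in the other Tet2-/- CLP libraries, and mitochondrial genes took 12.5%. Calls in CLP are therefore also counted without that library.

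The promoters of Xpa, Ung and Fance, which with Nbn were the members called at 2-fold or more between the genotypes within a population, are shown first, since TET2 acts on CG dinucleotides. RefSeq promoters (build GRCm38.p6, 250 bases before to 50 after a start site) matched 48 of the 57 members, Nbn not among them. The capitals mark every CG dinucleotide, and each sequence runs 5′ to 3′ on the strand of its gene. Xpa lies at chr4:46196262-46196561 on the minus strand, Ung at chr5:114130185-114130484 on the plus strand and Fance at chr17:28313280-28313579 on the plus strand.
Xpa: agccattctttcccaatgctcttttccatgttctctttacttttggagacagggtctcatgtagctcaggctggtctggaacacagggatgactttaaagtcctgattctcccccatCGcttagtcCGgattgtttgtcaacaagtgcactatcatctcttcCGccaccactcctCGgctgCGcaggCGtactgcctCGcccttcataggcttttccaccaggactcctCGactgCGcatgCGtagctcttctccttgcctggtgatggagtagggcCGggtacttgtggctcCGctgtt
Ung: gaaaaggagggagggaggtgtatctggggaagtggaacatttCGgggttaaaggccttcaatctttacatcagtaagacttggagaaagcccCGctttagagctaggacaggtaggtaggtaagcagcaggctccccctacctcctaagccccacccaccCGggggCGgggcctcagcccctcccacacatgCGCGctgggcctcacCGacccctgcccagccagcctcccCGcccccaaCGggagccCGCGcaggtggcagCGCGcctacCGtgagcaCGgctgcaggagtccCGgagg
Fance: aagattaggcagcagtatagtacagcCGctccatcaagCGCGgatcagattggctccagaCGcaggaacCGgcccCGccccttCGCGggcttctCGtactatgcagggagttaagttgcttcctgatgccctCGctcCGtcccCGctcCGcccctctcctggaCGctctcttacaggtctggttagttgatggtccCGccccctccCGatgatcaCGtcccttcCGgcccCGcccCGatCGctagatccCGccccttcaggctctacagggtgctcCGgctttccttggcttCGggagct

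The Xpa window held 12 CG dinucleotides, the Ung window 16 and the Fance window 24. The median was 22 over the 55 promoters of the members, with a range of 2 to 37, and 7 over all 32851 promoters. Of all promoters, 60.4% held fewer CG dinucleotides than Xpa, 67% fewer than Ung and 80% fewer than Fance. The letters GGCGGGAA, a form of the E2F motif, were found on either strand in 6 of the 55 member promoters (10.9%) and in 2.19% of all promoters. The CCAAT box was found on either strand in 32 of the 55 (58.2%) and in 37.4% of all promoters. Neither Xpa nor Ung nor Fance held GGCGGGAA, and Xpa and Fance held CCAAT.

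To ask whether loss of Tet2 changed the level of the repair genes, Tet2-/- and WT libraries were compared within each population. A gene was called where edgeR's adjusted p was below 0.05 and the change at least 2-fold. In the myeloid progenitors the same 3 members were lower in Tet2-/- cells: Xpa, the damage-verification factor of nucleotide excision repair, Ung, the uracil-DNA glycosylase that starts base excision repair, and Nbn, the NBS1 subunit of the MRE11-RAD50-NBS1 complex that senses breaks. Fance, a subunit of the Fanconi core complex, was also lower in GMP. By edgeR no member was called higher in CMP, GMP or MEP, and none was called in either direction in LT-HSC, ST-HSC or CLP.

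Read against all genes, 3 of 57 members called lower in CMP stood beside 3.92% of the genes tested. The counterparts were 4 of 57 beside 4.06% in GMP and 3 of 57 beside 4.21% in MEP. The share called higher was 0.654% of all genes in CMP, 0.308% in GMP and 0.147% in MEP, where no member was called. Lower in all 3 populations were 3 of the 57 members and 258 of 13911 genes (1.85%). The numbers of members called lower were thus small and their share was close to the share of all genes in each population taken alone.

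**Figure D1:**
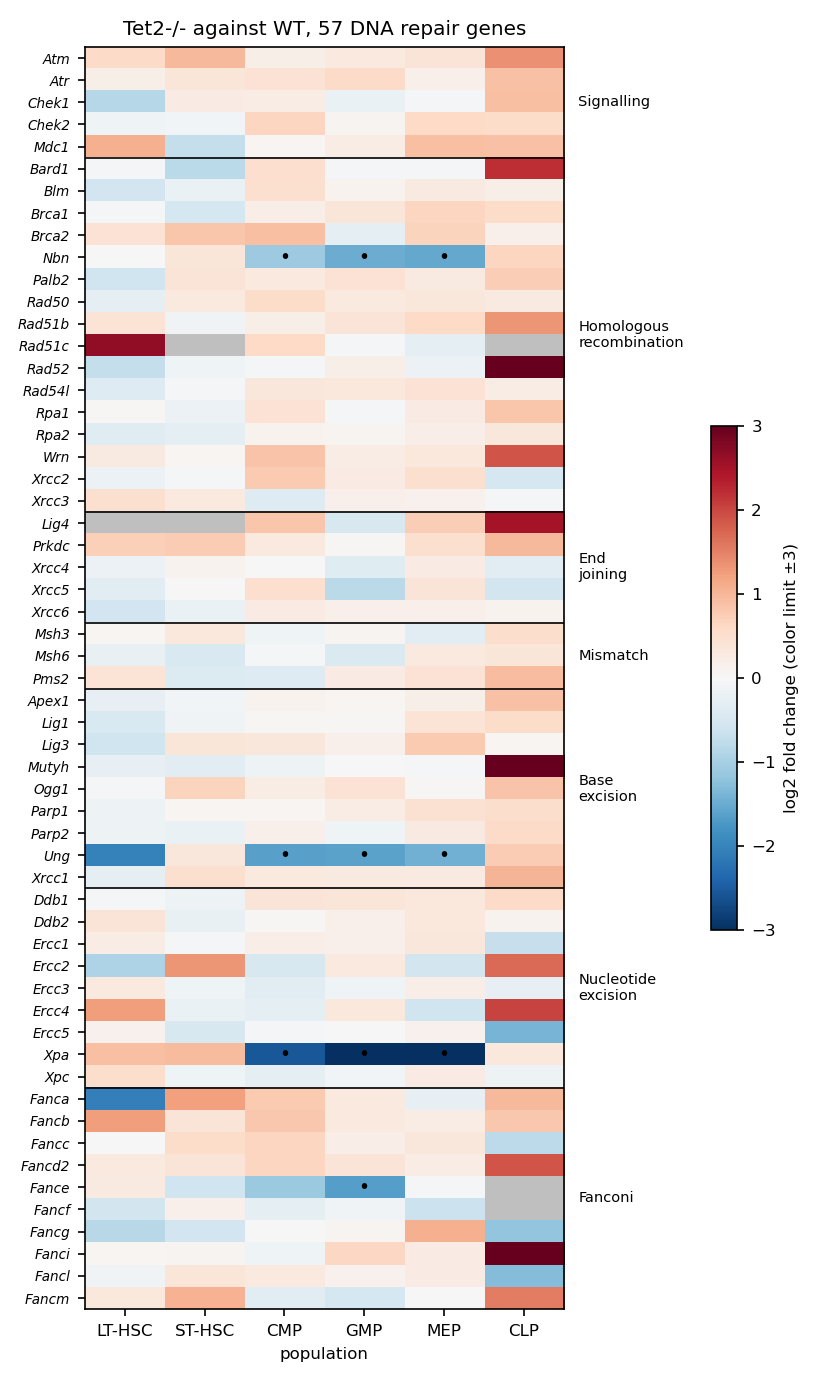
Log2 fold change of Tet2-/- against WT for each of the 57 repair genes (rows, grouped by pathway) in the 6 populations (columns). Dots mark called genes and grey cells genes below the count filter. The dots lie in the rows of Xpa, Ung and Nbn in CMP, GMP and MEP, and of Fance in GMP.

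Xpa showed the largest difference. In CMP it was at 17.4, 22.5, 17.1 and 14.5 TMM-scaled CPM (counts scaled to the same library size) in the WT libraries and at 2.76, 3.73, 3.24 and 2.57 in the Tet2-/- libraries. In GMP the WT libraries were at 20.4, 13.9, 16.1 and 11.5 CPM and the Tet2-/- libraries at 1.40, 2.43, 1.67 and 1.49. In MEP they were at 15.3, 22.7, 20.8 and 16.5 CPM and at 1.84, 0.728, 1.45 and 1.46. Every Tet2-/- library lay below every WT library in each of these populations. In such bulk samples, fewer cells that express a gene and less RNA per cell cannot be told apart. The log2 differences were -2.54 ± 0.24 (SE, adjusted p = 0.000263) in CMP, -3.17 ± 0.29 (adjusted p = 3.86e-05) in GMP and -3.76 ± 0.32 (adjusted p = 0.000143) in MEP, which is 5.82-fold, 8.997-fold and 13.5-fold lower. The exact permutation p was 0.0286 in each population, the smallest that 4 against 4 libraries allow. In LT-HSC, by contrast, Xpa was at 3.90, 1.94 and 3.48 CPM in WT and at 3.28, 1.67, 6.04 and 12.02 CPM in Tet2-/- cells, and the groups overlapped.

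Ung followed the same pattern at a higher level. In CMP it was at 28.4, 26.7, 33.3 and 37.0 CPM in WT and at 9.19, 13.1, 9.47 and 9.275 CPM in Tet2-/- cells. In GMP, where it was highest among WT populations, the values were 92.6, 87.05, 75.3 and 77.45 CPM against 24.6, 35.4, 30.3 and 22.7 CPM. In MEP they were 23.8, 13.5, 30.6 and 25.9 CPM against 7.96, 11, 8.92 and 7.02 CPM. The groups did not overlap in any of the 3. The log2 differences were -1.62 ± 0.20 (adjusted p = 0.00111) in CMP, -1.59 ± 0.16 (adjusted p = 0.000103) in GMP and -1.43 ± 0.27 (adjusted p = 0.0125) in MEP. With the replicate number as a block, the value in MEP was -1.40 and the call was lost (edgeR adjusted p = 0.08). Ung was also lower in every Tet2-/- LT-HSC library (0.725 to 3.08 CPM) than in every WT LT-HSC library (4.53 to 9.34 CPM), with a log2 difference of -2.02 ± 0.67, but this did not pass the test (adjusted p = 0.74).

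Nbn was at 52.6, 41.5, 35.1 and 45.1 CPM in WT CMP and at 24.5, 16.05, 19.2 and 22.05 CPM in Tet2-/- CMP. In GMP it was at 47.2, 52.6, 50.5 and 33.8 CPM against 19.25, 15.55, 13.7 and 19.4 CPM. In MEP it was at 55.05, 44.6, 48.6 and 69.9 CPM against 20.4, 14.7, 21.4 and 19.6 CPM. Again no library of one genotype reached the other. The log2 differences were -1.10 ± 0.18 (adjusted p = 0.00659), -1.49 ± 0.19 (adjusted p = 0.000508) and -1.53 ± 0.19 (adjusted p = 0.00154) in CMP, GMP and MEP. Rad50, the partner of NBS1 in the complex, had a log2 difference of 0.56 ± 0.13 in CMP, in the other direction.

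Fance was at 12.8, 13.6, 5.29 and 7.33 CPM in WT GMP and at 5.32, 3.19, 1.94 and 2.20 CPM in Tet2-/- GMP. The highest Tet2-/- library just exceeded the lowest WT library. The log2 difference was -1.64 ± 0.40 (adjusted p = 0.033) in edgeR, and the call was lost when 5 of the 8 libraries were left out one at a time (adjusted p up to 0.108). The other 9 Fanconi members were not called in the edgeR fits within each population, while DESeq2 also called Fancg, higher, in MEP.

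The 10 calls come from fits within each population. Where all 46 libraries, those of CLP and HSC included, shared 1 estimate of the spread, no member was called in CMP, and Xpa alone was called in GMP and in MEP. Calls over all genes fell as well. Within each population 734 of 16047, 723 of 16563 and 651 of 14934 genes were called in CMP, GMP and MEP. With the shared estimate these were 285, 219 and 423 of 22360. The cause of this loss was not tested. In the shared fit Xpa in CMP had an edgeR adjusted p of 0.0577 and Ung of 0.20 to 0.297. The log2 differences themselves moved by less than 0.05.

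**Figure D2:**
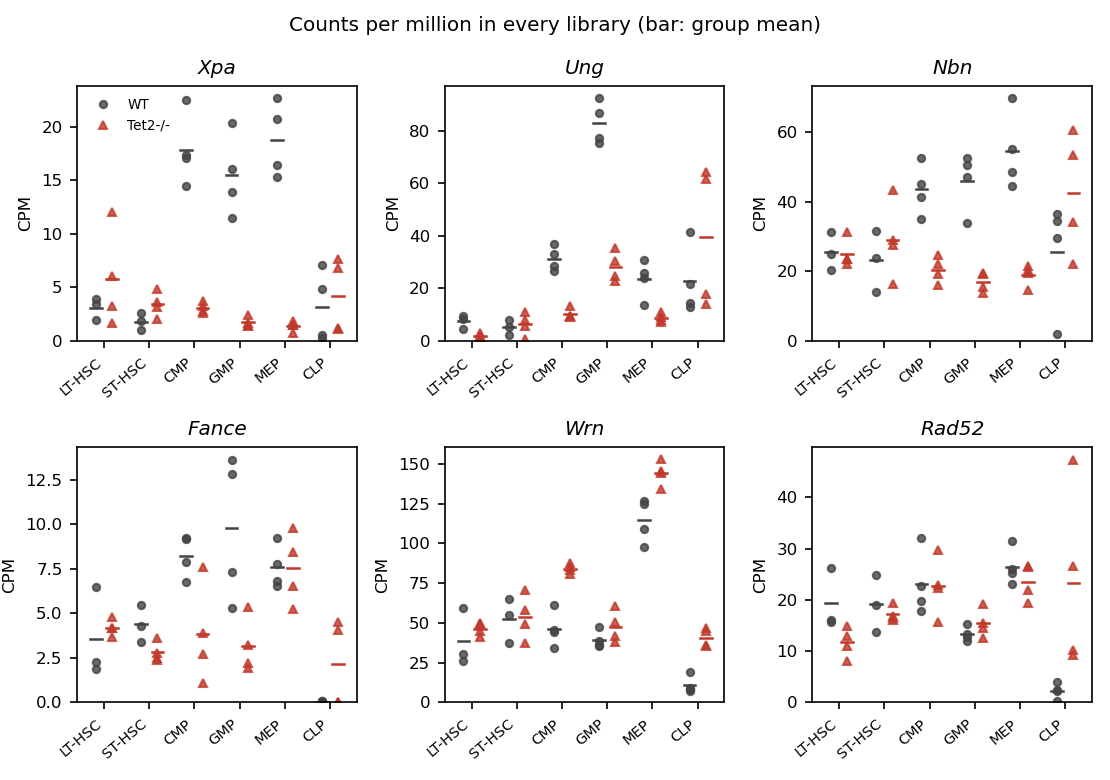
CPM of Xpa, Ung, Nbn, Fance, Wrn and Rad52 in every library (circles, WT; triangles, Tet2-/-), by population, with the group mean as a bar. Xpa, Ung and Nbn separate by genotype in CMP, GMP and MEP, and Wrn and Rad52 in CLP. Wrn also separates in CMP and MEP, and Ung and Rad52 in LT-HSC.

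Some properties of the libraries and genes moved with these calls. Mitochondrial genes took 5.94% to 6.57% of the counts in WT CMP and 7.85% to 8.37% in Tet2-/- CMP, and 3.64% to 4.6% against 4.74% to 5.09% in GMP, without overlap. The ranges overlapped in MEP, at 6.85% to 9.18% and 8.96% to 9.74%. In ST-HSC, where no member was called, they did not overlap, at 8.73% to 9.02% and 10% to 13.1%. The part of the mitochondrial share in the repair results was not tested. Among protein-coding genes, those called lower had a median GC content of 69.5%, 71.5% and 70.5% in the first 200 bases of the longest transcript in CMP, GMP and MEP. It was 62% for all protein-coding genes tested. Their median transcript length was 2306, 2874 and 2169 bases, against 3341, 3336 and 3341 for all protein-coding genes tested. The transcript of Xpa had 1241, Fance 2193, Nbn 2533 and Ung 3099 bases. The first 200 bases had a GC content of 67% in Xpa, 71% in Nbn, 75% in Fance and 42.5% in Ung. With a correction for the trend of each library with this GC content, added after seeing the data, Xpa (-2.40, -3.16 and -3.65) and Ung (-1.74, -1.60 and -1.42) remained called in all 3 populations. Nbn remained called in GMP and MEP at -1.33 and -1.28, and fell below 2-fold in CMP at -0.81. Fance in GMP was at -1.42, against -1.64 without the correction, and missed the threshold (edgeR adjusted p = 0.0528). Brca2 was called higher in CMP. The SMART-seq kit does not mark strand, and 26 of the 57 members share exon bases with a gene on the other strand. Among them are Xpa, which shares 77 bases with Ncbp1, and Fance, which shares 104 with the antisense gene CT025652.1. Ung and Nbn share none with an annotated gene in GENCODE vM21.

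A few members were higher in Tet2-/- progenitors by less than 2-fold. In CMP 5 of 57 members had an edgeR adjusted p below 0.05 in this direction, against 1.71% of all genes. They were Wrn, the RecQ helicase lost in Werner syndrome, Brca2, which loads the recombinase onto single-stranded DNA, the checkpoint kinase Chek2, Rad50, and Ddb1, the damage-binding adaptor of the CUL4 ubiquitin ligase. In MEP 3 of 57 did so, against 0.656% of all genes. They were Chek2, Mdc1, the scaffold that reads phosphorylated histone H2AX, and the poly(ADP-ribose) polymerase Parp1. In GMP no member did so, against 1.07% of all genes, and 6 of 57 members were higher at an unadjusted p below 0.05, as were 1217 of all 16563 genes.

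Wrn rose in CMP from 60.9, 45.5, 34.1 and 44.3 CPM in WT to 83.3, 87.9, 80.7 and 85.0 CPM in Tet2-/- cells. The log2 difference was 0.86 ± 0.17 (adjusted p = 0.0143). Chek2 rose in CMP from 41.05, 30.5, 37.0 and 39.3 CPM to 58.7, 68.5, 52.6 and 52.7 CPM, and in MEP from 37.1, 35.2, 42.0 and 39.6 CPM to 54.35, 68.8, 64.65 and 48.2 CPM. Its log2 differences were 0.64 ± 0.15 (adjusted p = 0.0301) and 0.61 ± 0.14 (adjusted p = 0.0352). Mdc1 rose in MEP from 5.74, 6.10, 6.06 and 6.40 CPM to 14.0, 10.8, 9.07 and 11.6 CPM, with a log2 difference of 0.89 ± 0.21 (adjusted p = 0.0354). None of these groups overlapped. The log2 differences of the others were 0.89 ± 0.22 for Brca2, 0.56 ± 0.13 for Rad50 and 0.40 ± 0.09 for Ddb1 in CMP, and 0.46 ± 0.11 for Parp1 in MEP. These smaller changes lost the threshold with most single libraries left out, up to an adjusted p of 0.123, and Wrn lost it with 1 of 8 (0.0536). In the fit of all 46 libraries none of these changes passed, with adjusted p-values from 0.0837 for Wrn to 1 for Chek2. Some proliferation genes were higher as well, and 12 of 20 G2 and mitosis genes had an adjusted p below 0.05 in this direction in CMP, 6 in GMP and 1 in MEP. Their summed CPM was 1980 to 2696 in WT CMP and 3296 to 3777 in Tet2-/- CMP, and 2066 to 2699 against 2793 to 3318 in GMP. In MEP the ranges overlapped, at 2319 to 2823 and 2615 to 3173. In CMP Mki67 had a log2 difference of 0.76 and Top2a of 0.80. Mcm2 and Mcm5, markers of S phase, were at -0.23 and -0.22. The proliferation genes that changed at least 2-fold were lower, namely the cyclin genes Ccna2 (-1.93 in GMP and -1.23 in MEP) and Ccne1 (-2.48 in GMP and -1.70 in MEP) and the licensing factor Cdt1 (-1.23 in GMP). These 3 genes and Klf1 were picked after their values were seen. Markers of other populations moved too. The summed CPM of 6 MEP markers was 668 to 1668 in WT CMP and 2904 to 5752 in Tet2-/- CMP, with 5 of the 6 higher in mean and Klf1 lower. That of 6 CLP markers was 182.7 to 290.9 in WT CMP and 115.7 to 145.3 in Tet2-/- CMP, with all 6 lower in mean and Rag1 at 0 in Tet2-/- CMP. In GMP the MEP markers were at 87.0 to 110.8 against 125.7 to 172.2 CPM and the CLP markers at 114.3 to 184.9 against 92.2 to 106.8 CPM. Summed LT-HSC markers (13.5 to 18.1 against 20.9 to 24.9 CPM) and the genes of the sort markers (1148 to 1267 against 1289 to 1491 CPM) were also higher in every Tet2-/- GMP library. The part of proliferation and of these markers in the repair results, lower and higher, was not tested.

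The members as a group sat slightly above all genes in the progenitors. Their median log2 difference was 0.19 in CMP, 0.14 in GMP and 0.25 in MEP, against 0.03, 0.03 and 0.05 over all genes tested. Positive values were found for 39, 37 and 42 of the 57, and for 8349 of 16047, 8764 of 16563 and 8095 of 14934 genes tested. By pathway, all 5 damage signalling genes and all 5 end joining genes had positive values in CMP, and all 3 mismatch repair genes had negative ones, but no member of these pathways was called in either direction. The 3 mismatch repair genes measured, Msh3, Msh6 and Pms2, were within 1 log2 unit of WT in every population.

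In the stem cells no member passed the test. In LT-HSC 56 members were tested and 0 called, against 0.0245% of all genes, and in ST-HSC 55 were tested and 0 called, against 0.0185%. At an unadjusted p below 0.05 there were 2 members higher and 1 lower in LT-HSC, and 1 higher and 1 lower in ST-HSC. Over all genes there were 494 higher and 349 lower of 16351 in LT-HSC, and 456 and 538 of 16212 in ST-HSC. DESeq2 called 0 members in both, against 145 of 16351 genes in LT-HSC and 191 of 16212 in ST-HSC. The members of smallest p in LT-HSC were Ung, Mdc1 (1.07 ± 0.37), Ercc4, a nuclease subunit of nucleotide excision and crosslink repair (1.26 ± 0.49), and the Ku70 gene Xrcc6 (-0.59 ± 0.30). In ST-HSC they were Prkdc, the catalytic subunit of DNA-PK (0.76 ± 0.31), Msh6 (-0.45 ± 0.20), Fancl (0.36 ± 0.19) and Atm (0.98 ± 0.59). The median over the members was -0.07 in LT-HSC and -0.01 in ST-HSC, against 0.06 and 0.04 over all genes. Nbn was at 20.4 to 31.4 CPM in WT LT-HSC and at 21.9 to 31.25 CPM in Tet2-/- LT-HSC.

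In CLP 54 members were tested and 0 called, against 0.00766% of all genes, with 2 members higher and 1 lower at an unadjusted p below 0.05, as were 218 and 259 of all 13060 genes. The 2 higher members were Wrn and Rad52, a mediator of single-strand annealing. Wrn was at 18.8, 7.02, 8.39 and 9.11 CPM in WT CLP and at 44.8, 46.8, 35.35 and 35.9 CPM in Tet2-/- CLP (log2 difference 1.89 ± 0.54, adjusted p = 0.90 in edgeR). Rad52 was at 2.22, 2.36, 0.326 and 3.94 CPM against 47.4, 26.5, 10.3 and 9.16 CPM (3.35 ± 1.11, adjusted p = 1). All Tet2-/- libraries exceeded all WT libraries for both genes. DESeq2 called both, and so did the fit of all 46 libraries, which also called Fancl, lower at -1.29 (adjusted p = 0.00654), and Fance. Over all genes DESeq2 called 120 of 13060 in CLP, and the fit of all 46 libraries called 1477 of 22360. Fance had been below the count filter in CLP, at 0 to 0.0949 CPM in WT and at 0, 0, 4.53 and 4.05 CPM in Tet2-/- libraries. Leaving out any CLP library, replicate 2 of Tet2-/- CLP among them, gave no call in edgeR, with log2 differences of 1.73 to 2.21 for Wrn and 2.75 to 3.80 for Rad52. The median over the members was 0.57 in CLP against 0.07 over all genes. It was 1.18 against 0.61 with total counts in place of scaling factors. The summed CLP markers were lower in every Tet2-/- CLP library, at 2205 to 132600 CPM against 146400 to 268700 CPM in WT, and the GMP markers ranged from 2.81 to 12350 CPM against 4.77 to 3190 CPM. Their part in these values was not tested.

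Whether the Tet2 effect differed between the 6 populations was tested by an interaction over the 46 libraries. It passed for 3 of 57 members, Rad52 (adjusted p = 0.000477), Xpa (adjusted p = 0.00128) and Wrn (adjusted p = 0.00691), against 2.65% of all genes. Without the 8 CLP libraries, chosen after seeing the data, Rad52 (adjusted p = 0.53) and Wrn (adjusted p = 0.57) no longer passed, and Xpa did, with Mdc1 and Nbn. Averaged over the 6 populations, Xpa was called lower, at -1.22 ± 0.28 (adjusted p = 0.00351), against 3.49% of all genes called in either direction. Below 2-fold, Ung (-0.93 ± 0.22, adjusted p = 0.00472) was lower, and Wrn (0.61 ± 0.11, adjusted p = 0.000107) and Atr (0.43 ± 0.12, adjusted p = 0.0191) were higher. These fits treat all libraries as independent, which the labels do not state.

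Of 90 other repair genes listed alongside the members, 89 were in the table. H2afx, which encodes the histone phosphorylated at breaks, was called lower in CMP (-2.78 ± 0.31), in GMP (-1.50 ± 0.28) and in MEP (-3.34 ± 0.46). It was at 96.6 to 244 CPM in WT CMP and at 17.7 to 31.2 CPM in Tet2-/- CMP, and at 58.0 to 187 CPM against 7.46 to 19.8 CPM in MEP. The other calls were Rmi2, a subunit of the BLM dissolvasome, in CMP (-2.11) and Tdg, a glycosylase that removes oxidized methylcytosine, in GMP (-1.50). In the fit of all 46 libraries, Rmi2 (adjusted p = 0.957), Tdg (adjusted p = 1) and H2afx in GMP (adjusted p = 0.31) were not called, and H2afx in CMP and MEP was. No gene of this list was called higher in any single population. Over all 6 populations H2afx was called lower at -1.12 (adjusted p = 0.000268), and Polq, the polymerase of alternative end joining, was called higher at 1.89, where the value was 0.52 (adjusted p = 0.33) without the CLP libraries. With limma voom and an estimated correlation neither was called (adjusted p = 0.221 for H2afx and 0.0646 for Polq).

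Next, the populations were compared within each genotype to see how repair genes follow differentiation. In WT GMP, 3 of the 9 base excision and single-strand break repair genes, Ung, Xrcc1 and Parp1, were higher than in LT-HSC and none was lower, and the end joining genes split. Xrcc5, the Ku80 subunit that binds broken ends, and Xrcc4, the ligase IV partner, were lower in GMP, while the Ku70 gene Xrcc6 was not called in WT. In Tet2-/- GMP, which share no library with WT, Ung, Xrcc1 and Parp1 were again higher, and Xrcc5 and Xrcc4 lower. Xrcc6 was called higher there, and Lig4, called higher in WT GMP, was not called. Of 57 members tested in each, WT GMP had 11 higher and 3 lower, against 9.93% and 6.35% of all genes, and Tet2-/- GMP had 12 higher and 2 lower, against 9.22% and 6.7%. Of the 57 members, 9 were called the same way in both genotypes, beside 9.59% of all genes tested in both. They made up 64.3% of the member calls in either genotype, close to the 55.8% of WT calls and 58.5% of Tet2-/- calls over all genes. The shared members were Ung, Xrcc1, Parp1, Ddb1, Xpc, Fancg and Rpa1, higher, and Xrcc4 and Xrcc5, lower. With some single libraries left out, the adjusted p missed the threshold for Rpa1 in WT GMP. The same held for Fancg, Xpc and Xrcc4 in Tet2-/- GMP.

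**Figure D3:**
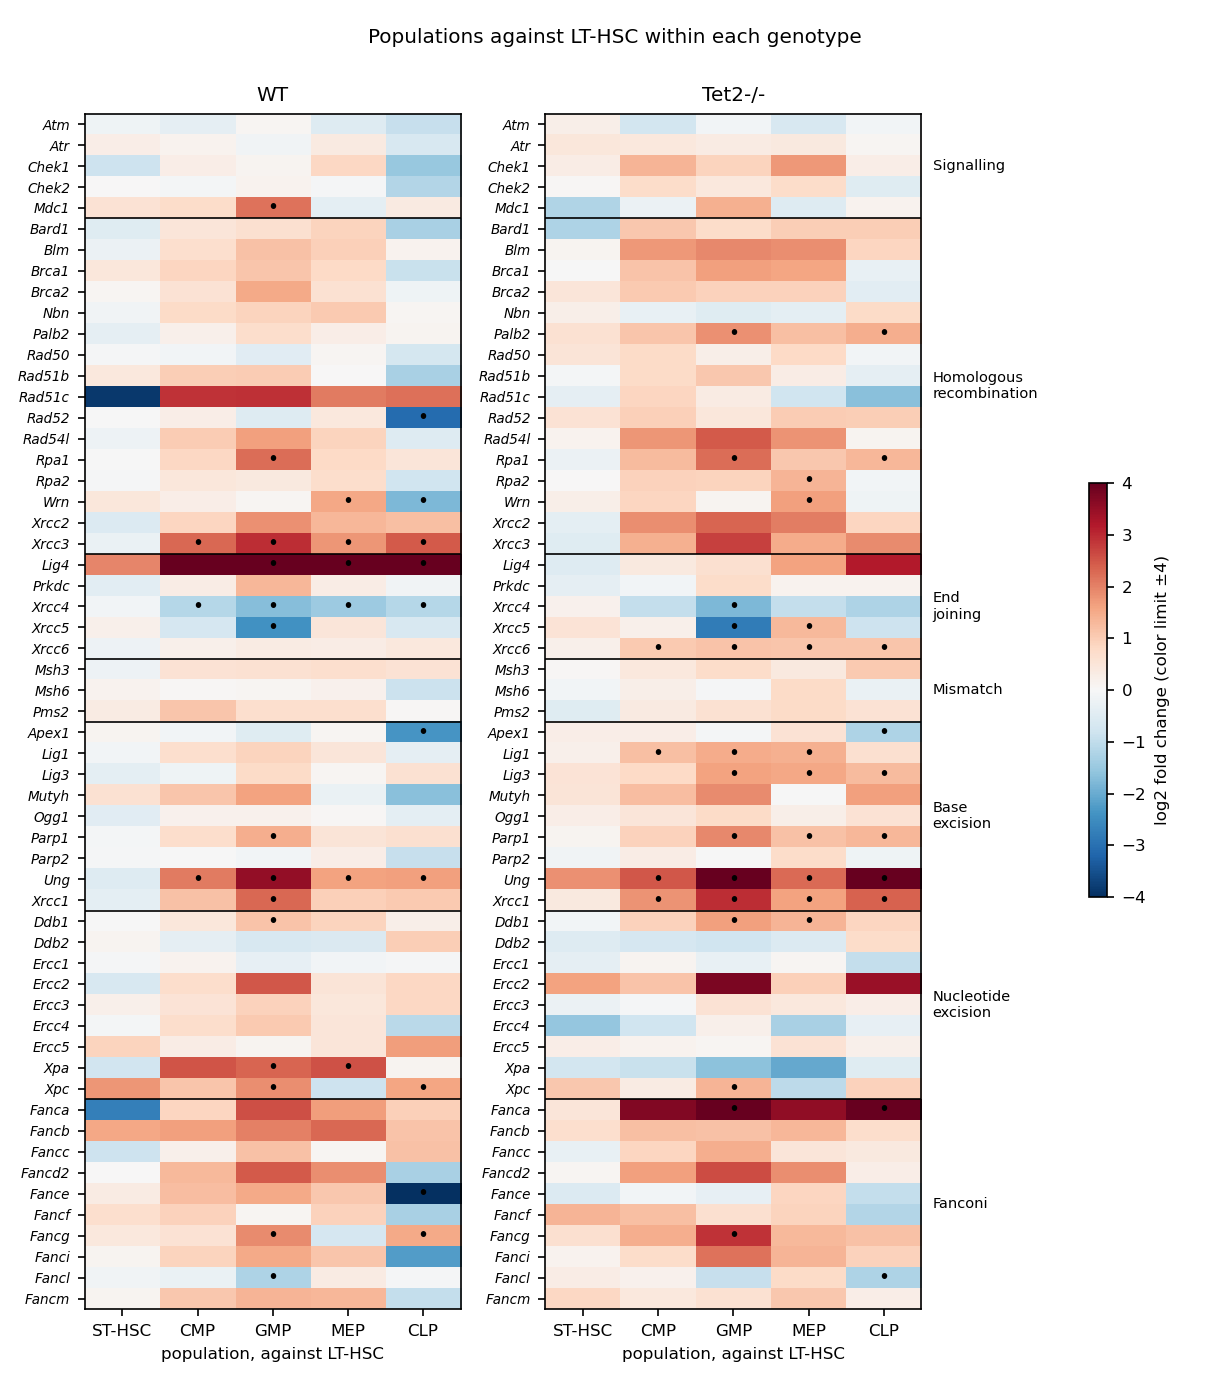
Log2 fold change of each population against LT-HSC for the 57 repair genes, in WT (left) and Tet2-/- (right). Dots mark called genes. Ung is called in CMP, GMP, MEP and CLP of both genotypes, and Xrcc5 is lower in GMP of both.

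Ung was called higher than in LT-HSC in CMP, GMP, MEP and CLP of both genotypes. Outside GMP and Tet2-/- CLP, these calls depended on single libraries. Without WT LT-HSC replicate 3, the edgeR adjusted p was 0.0601 in WT CMP, 0.1 in WT MEP and 0.0536 in WT CLP. The Tet2-/- CMP call was lost with 7 of 24 single libraries left out (up to 0.0934). The Tet2-/- MEP call was lost without Tet2-/- LT-HSC replicate 5 (0.0596). In WT it went from 8.465, 4.53 and 9.34 CPM in LT-HSC to 75.3 to 92.6 CPM in GMP (log2 difference 3.51 ± 0.48, adjusted p = 3.13e-05). In Tet2-/- cells it went from 1.61, 3.08, 1.85 and 0.725 CPM to 22.7 to 35.4 CPM (4.02 ± 0.68, adjusted p = 0.000328). The difference between these rises was not tested. Xrcc1, the scaffold of single-strand break repair, went from 8.67, 7.53 and 6.96 CPM in WT LT-HSC to 38.6, 33.95, 30.6 and 44.3 CPM in WT GMP (2.29 ± 0.45, adjusted p = 0.00116). The rise was 2.94 ± 0.39 (adjusted p = 3.02e-05) in Tet2-/- GMP. Parp1, which marks nicks for XRCC1, rose by 1.47 ± 0.30 in WT GMP and by 1.92 ± 0.23 in Tet2-/- GMP. The replicative ligase Lig1 and its relative Lig3 passed in Tet2-/- GMP and MEP (log2 differences of 1.43 to 1.595) and not in WT, and the difference between the genotypes in these steps was not tested. The Lig3 call was lost with 3 of 24 single libraries left out in Tet2-/- GMP (edgeR adjusted p up to 0.065). In Tet2-/- MEP it was lost with 5 of 24 (up to 0.0794). Lig3 shares 1826 exon bases with Rffl on the other strand.

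Xrcc5 was at 54.2, 64.7 and 48.5 CPM in WT LT-HSC and at 8.65, 8.425, 13.6 and 9.51 CPM in WT GMP, and every GMP library lay below every LT-HSC library. The log2 difference was -2.43 ± 0.26 (adjusted p = 2.09e-06). Tet2-/- GMP were at 5.68, 2.58, 6.93 and 8.77 CPM (-2.79 ± 0.35, adjusted p = 1.52e-05). In MEP Xrcc5 was at 76.65, 75.8, 76.7 and 91.1 CPM in WT and at 95.6, 106, 124 and 98.9 CPM in Tet2-/- cells. The difference between MEP and GMP was therefore 2.92 ± 0.26 (adjusted p = 1.725e-07) in WT and 4.09 ± 0.37 (adjusted p = 1.36e-07) in Tet2-/- cells. Xrcc4 was lower than in LT-HSC in WT CMP (-1.15 ± 0.32), GMP (-1.69 ± 0.32), MEP (-1.45 ± 0.32) and CLP (-1.14 ± 0.32), and in Tet2-/- GMP (-1.78 ± 0.52). Xrcc6 was higher in all 4 Tet2-/- progenitor populations (1.06 to 1.15). In CMP it was under 2-fold with RLE scaling and in DESeq2 (0.95 in both), and its adjusted p missed the threshold without either of 2 libraries, Tet2-/- LT-HSC replicate 5 and Tet2-/- CMP replicate 3 (up to 0.0684).

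**Figure D4:**
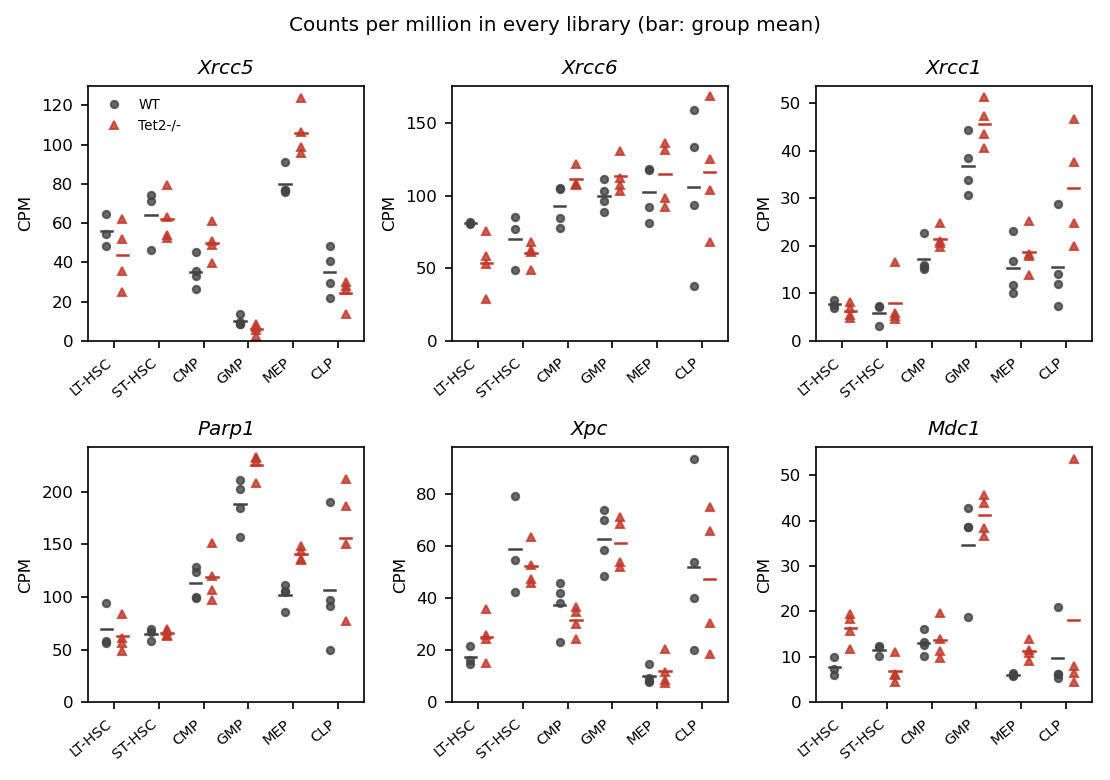
CPM of Xrcc5, Xrcc6, Xrcc1, Parp1, Xpc and Mdc1 in every library (circles, WT; triangles, Tet2-/-), with the group mean as a bar. Xrcc5 is lowest in GMP and highest in MEP in both genotypes, while Xrcc1 is highest in GMP in WT.

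Among the break repair and damage signalling genes, Xrcc3, a paralog that assists strand invasion, rose in WT CMP (2.29 ± 0.56), GMP (2.97 ± 0.58), MEP (1.78 ± 0.55) and CLP (2.45 ± 0.57) and shares 12 exon bases with Klc1. Its CMP call was lost without any 1 of the 3 WT LT-HSC libraries (edgeR adjusted p up to 0.0814). Its MEP call was lost without the low-count filter (0.0559) and with 6 of 22 single libraries left out (up to 0.117). By edgeR Xrcc3 was not called against LT-HSC in Tet2-/- cells, while DESeq2 called it in Tet2-/- GMP. Rpa1, the large subunit of the single-strand binding protein, was higher in GMP of both genotypes (2.22 ± 0.74 and 2.22 ± 0.44). Its WT call (edgeR adjusted p = 0.0418) was lost with 11 of 22 single libraries left out (up to 0.138). It was also lost with the replicate number as a block (0.053). Rpa2 was higher in Tet2-/- MEP (1.35 ± 0.33), and Palb2, which links BRCA1 to BRCA2, in Tet2-/- GMP (1.84 ± 0.50). Wrn was highest in MEP, at 97.6 to 127 CPM in WT and at 134 to 153 CPM in Tet2-/- cells, 1.53 ± 0.34 and 1.66 ± 0.20 above LT-HSC. Mdc1 was at 38.6, 38.6, 18.8 and 42.8 CPM in WT GMP, 2.18 ± 0.47 above LT-HSC, and at 5.74 to 6.40 CPM in WT MEP. Brca1, Brca2, Blm and Atm were not called in any of these comparisons.

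Some nucleotide excision genes were higher in GMP too. Xpc, the lesion sensor, was higher in GMP of both genotypes (1.87 ± 0.40 and 1.35 ± 0.38), and Ddb1 rose by 1.13 ± 0.15 and 1.64 ± 0.24. Xpa was higher than LT-HSC in WT GMP (2.33 ± 0.79, adjusted p = 0.0436) and WT MEP (2.55 ± 0.80, adjusted p = 0.0371). In Tet2-/- GMP and MEP its values were -1.64 ± 0.69 and -2.04 ± 0.70, neither called. The WT GMP call of Xpa was lost with 17 of 22 single libraries left out (edgeR adjusted p up to 0.161). Its WT MEP call was lost with 7 of 22 (up to 0.148). Both missed the threshold without the low-count filter as well (adjusted p = 0.0665 and 0.0564), as did Rpa1 in WT GMP (0.0628) and Xrcc4 in WT CMP (0.0626). Fancg in Tet2-/- GMP missed it there (0.0805), with RLE scaling (0.0593) and with 22 of 24 single libraries left out (up to 0.115). Of the Fanconi genes, Fancg, a core complex subunit, rose in GMP of both genotypes (1.89 ± 0.44 and 2.895 ± 0.999). Fanca rose in Tet2-/- GMP (5.02 ± 1.40), from 0 to 1.75 CPM in LT-HSC to 25.2 to 31.2 CPM, and shares 920 exon bases with Zfp276. Fancl, the ubiquitin ligase of the complex, was lower in WT GMP (-1.25 ± 0.21). Lig4, which seals broken ends, had no count in WT LT-HSC. It was called higher in WT GMP and MEP at means of only 1.69 and 1.52 CPM, and the reads come from amplified RNA of few cells, so no fold is given.

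The other steps from LT-HSC gave fewer calls. In ST-HSC no member was called in WT, against 0.175% of all genes, or in Tet2-/- cells, against 0.118%. Xpc had values of 1.75 ± 0.42 in WT and 1.08 ± 0.38 in Tet2-/- ST-HSC, and Ung 1.83 ± 0.62, Ercc4 -1.53 ± 0.56 and Mdc1 -1.2 ± 0.56 in Tet2-/- ST-HSC. Rad51c had no count in any WT ST-HSC library. DESeq2 called 2 members, Xpc and Lig4, in WT ST-HSC and 0 in Tet2-/- ST-HSC. Over all genes it called 734 of 20006 and 710 of 19415. In CMP there were 2 higher and 1 lower in WT, against 4.17% and 1.36%, and 4 higher and 0 lower in Tet2-/- cells, against 2.47% and 1.44%. The 3 WT calls fell to 0 without WT LT-HSC replicate 3 and to 1 without replicate 2 or 5. DESeq2 called 7 members in WT CMP, against 2140 of 20006 genes. Ung was the 1 of 57 members shared by both genotypes (2.08 ± 0.45 and 2.50 ± 0.64), beside 1.54% of all genes. Xrcc1 (1.79 ± 0.38) and Lig1 (1.201 ± 0.28) were the other excision repair genes higher in Tet2-/- CMP. In MEP there were 5 higher and 1 lower in WT, against 5.16% and 7.42%, and 10 higher and 0 lower in Tet2-/- cells, against 5.15% and 8.92%. The 6 WT calls fell to 2 without WT LT-HSC replicate 3. They fell to 3 without WT LT-HSC replicate 2 or 5, WT MEP replicate 2, 4 or 5, or the low-count filter. Ung and Wrn, 2 of 57, were shared by both genotypes, beside 7.08% of all genes. Between MEP and GMP 3 members were higher in MEP and 5 lower in WT, against 4.58% and 10.2%, and 3 higher and 3 lower in Tet2-/- cells, against 5.36% and 10.3%. Called the same way in both genotypes were 6 of the 57 members, beside 10.3% of all genes. These were 100% of the Tet2-/- and 75% of the WT member calls, against 63.6% and 66.4% of the calls over all genes. Fancl (1.58 ± 0.20 and 1.66 ± 0.37), Xrcc5 and Wrn (1.47 ± 0.30 and 1.54 ± 0.20) were higher in MEP. Xpc (-2.705 ± 0.38 and -2.40 ± 0.40), Xrcc1 (-1.325 ± 0.40 and -1.34 ± 0.37) and Mdc1 (-2.58 ± 0.43 and -1.91 ± 0.57) were lower.

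In CLP 5 members were higher and 5 lower than in LT-HSC in WT, against 11% and 15% of all genes, and 8 were higher and 2 lower in Tet2-/- cells, against 9.75% and 11%. Ung, higher, and Apex1, the AP endonuclease, lower, 2 of 57, were shared by both genotypes, beside 11.9% of all genes. Fance was called lower in WT CLP, at 0 to 0.0949 CPM against 1.87 to 6.47 CPM in WT LT-HSC. Its counts in WT CLP were 5, 0, 0 and 4, near the floor of 3 counts, so no fold is given. Rad52 (-3.08 ± 0.51) and Wrn (-1.81 ± 0.32) were low there as well. Apex1 was lower by a log2 difference of -2.37 ± 0.31 in WT and -1.23 ± 0.20 in Tet2-/- CLP, and shares 877 exon bases with Pip4p1. Among the members called in Tet2-/- CLP, the largest values were those of Ung (4.43 ± 0.70), Fanca (3.98 ± 1.33) and Xrcc1 (2.37 ± 0.39), and in WT CLP Xpc (1.58 ± 0.40) and Fancg (1.53 ± 0.43) were also higher. The Lig4 call in WT CLP rested on 1 library, since the other 3 had no count. The summed GMP markers were at 2.81, 12350, 2400 and 4192 CPM in the Tet2-/- CLP libraries, against 19.3 to 148.1 CPM in Tet2-/- LT-HSC, and their part in these calls was not tested. Without replicate 3 of Tet2-/- CLP, which was highest in them, 7 members were called, with Fanca, Fancl, Lig3 and Rpa1 no longer among them. Without replicate 2 of Tet2-/- CLP, 12 members were called in Tet2-/- CLP, with Rpa1, Lig3 and Palb2 no longer among them, and the calls in all 6 Tet2-/- comparisons together rose from 44 to 68. The calls over all genes in these refits are not given here, so these counts do not show a change particular to the members.

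The median member was above LT-HSC in every myeloid progenitor. In WT the medians were 0.58 in CMP, 1.02 in GMP and 0.51 in MEP, against 0, 0.03 and -0.03 over all genes, and in Tet2-/- cells they were 0.78, 0.75 and 0.92, against -0.02, 0 and -0.13. In ST-HSC they were -0.05 and 0.13, and in CLP -0.06 and 0.28. The WT CLP median changed sign, to 0.08, with DESeq2-type (RLE) scaling factors. Summed proliferation genes were higher over the same steps. The summed CPM of 22 S phase genes was 1630 to 2491 in WT LT-HSC, 3953 to 4825 in WT GMP and 2978 to 3944 in WT MEP, and the median log2 difference of these genes was 1.52 in WT GMP. The part of proliferation in the higher repair genes was not tested.

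Compared per kilobase of exon, the members spanned a wide range of levels in each group. Apex1 ranked first in WT LT-HSC at 129 CPM per kilobase and in WT GMP at 90.9, followed in both by Rpa2 at 39.3 and 50.3. Next in WT GMP came Parp1 and Ddb1, at 35.7 and 34.2 CPM per kilobase. Lig4 and Rad51c ranked last in both groups, and Rad51c was at 3 counts or fewer in every WT ST-HSC library.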

How the data were processed

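The authors deposited raw counts per gene for 46 libraries of 6 sorted populations. By the methods and the submitters' processing notes, reads were trimmed with Trim Galore and mapped with HISAT2 to mm10. The notes also list mm9 and DESeq2. The counting program and annotation are not given in the sources used here. Another deposited table, with 9 libraries, was not used.

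Groups came from the labels. Libraries held 50458473 to 102148079 counts, and 3 counts in a library were taken as the floor. Counts were tested with edgeR 4.0.16 (R 4.3.3), using filterByExpr, TMM factors and the quasi-likelihood test, with Benjamini-Hochberg adjustment over all genes tested. Tet2-/- and WT were compared within each population, populations within each genotype, and the interaction and mean effect over all libraries. Calls needed both an adjusted p below 0.05 and a change of 2-fold or more. CPM are TMM-scaled, and fold changes use a prior count of 2. Single values were also tested by a two-sided exact permutation test. Gene models were GENCODE vM21 (mm10), and promoters RefSeq (GRCm38.p6). The fits were tested on simulated data.

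The alternatives were RLE scaling, no low-count filter, the replicate number as a block, DESeq2 1.42.0, limma 3.58.1 voom, 1 fit of 46 libraries, no minimum fold, and each library left out. A GC correction, total-count scaling and fits without CLP were chosen after seeing the data. The members and gene lists were chosen with earlier results of these data known. All members could be named; values were given for those called, up to 12 per comparison by size of change, otherwise for the 4 of smallest p, and for up to 4 other repair genes. The study counts its replicates as mice. The labels name no animals, and whether same-numbered libraries of different populations share a mouse is not stated.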

Additional observations from a re-analysis of the deposited data

Results flagged for a closer look

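Of 130 groups of 4 libraries, over 13 members, 6 had 1 library far from the rest, measured as its gap to the nearest library divided by the range of the group. Chance gives about 1 in 20. Mdc1 in WT CLP replicate 3 was at 20.89 CPM against 5.455 to 6.264 (ratio 0.948), and in Tet2-/- CLP replicate 3 at 53.63 CPM against 4.543 to 7.945 (0.931). Brca2 in WT CLP replicate 5 was at 42.34 CPM against 0.1186 to 5.716 (0.867). Ung in Tet2-/- CMP replicate 3 was at 13.13 CPM against 9.188 to 9.466 (0.93), still below every WT CMP library. Rad50 in WT CMP replicate 2 was at 92.24 CPM against 68.92 to 72.45 (0.849), and Atr in WT GMP replicate 3 at 45.67 CPM against 37.38 to 38.35 (0.883).

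The Tet2 effect differed between the 6 populations in edgeR's interaction test for Rad52 (adjusted p = 0.000477), Xpa (adjusted p = 0.00128) and Wrn (adjusted p = 0.00691). Xpa was lower in CMP, GMP and MEP, and Rad52 and Wrn were highest against WT in CLP. Without the CLP libraries the adjusted p was 0.53 for Rad52 and 0.57 for Wrn.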

How the results depend on the processing

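No call took the opposite direction under any setting. That of Lig4 in WT CLP against LT-HSC fell to a log2 difference of 0 without WT CLP replicate 3. With 1 fit of all 46 libraries the members called went from 3 to 0 in CMP, from 4 to 1 in GMP, from 3 to 1 in MEP and from 0 to 4 in CLP. Over all genes the calls went from 734 to 285, 723 to 219 and 651 to 423 in CMP, GMP and MEP. In CLP they went from 1 to 1477. DESeq2 called 2 members in CLP, against 120 of 13060 genes. With no minimum fold there were 8 in CMP and 6 in MEP. For the mean effect, 1 member was called, 3 with voom and 4 without the CLP libraries. Over all genes the counts were 781 of 22360, 717 of 22360 and 828 of 21736. The cause was not tested. Leaving out 1 library at a time gave 3 to 5 calls in CMP, 3 to 4 in GMP, 3 in MEP and 0 in LT-HSC, ST-HSC and CLP. It gave 1 to 2 for the mean effect and 3 to 7 for the interaction, 7 without Tet2-/- CLP replicate 2. Over all genes it gave 646 to 976 for the mean effect and 502 to 737 for the interaction. The population comparisons had 41 calls in WT (31 to 52) and 44 in Tet2-/- cells (32 to 68), and 54 and 60 with DESeq2. Over all genes DESeq2 also called more in each of these comparisons, such as 4559 against 3258 for WT GMP against LT-HSC. Without the low-count filter 19 of 138 named results lost the threshold.

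RLE scaling moved the median of all genes in Tet2-/- GMP against LT-HSC from 0 to -0.113, the largest such shift among these comparisons. In Tet2-/- CMP against LT-HSC it turned 480 higher and 280 lower genes into 397 and 352. The members called were then 42 in WT and 45 in Tet2-/- populations.

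Same-numbered libraries of the 2 genotypes correlated at -0.025 to 0.06 in their deviations from the group means, and those of different populations at -0.018 to 0.12 in WT and -0.025 to 0.15 in Tet2-/- cells (means 0.033 and 0.045, against -0.011 and -0.015 for different numbers). The numbers were not taken to pair them. With the replicate number as a block there were 37 calls in WT and 42 in Tet2-/- populations, and 2 in MEP, where Ung had an edgeR adjusted p of 0.08. Of the changes under 2-fold, Chek2 (0.121 in CMP and 0.119 in MEP), Mdc1 (0.125), Parp1 (0.13), Rad50 (0.0731) and Ddb1 (0.0962) missed the threshold, as did Xrcc4 in WT CMP (0.0562), Fancg in Tet2-/- GMP (0.0607) and 6 other named results. Members near the floor of 3 counts, such as Lig4 and Rad51c, give little precision.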
